A study of Mus musculus with 9 samples.

Results

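The genes described here are 40 interferon-stimulated antiviral genes of the mouse, a named list that leaves out the interferon-induced GTPases of the Gbp and Irg families and the major histocompatibility complex. All 40 were found by symbol among the 55335 genes of the deposited table, and 32 of them had a mean of at least 0.5 FPKM (sequenced fragments scaled to gene length and library size) and were tested, among the 15997 genes that reached that level. RNA-seq libraries were made from the substantia nigra of mice in 3 groups of 3 libraries. MPTP plus running mice were injected with MPTP, a toxin of dopaminergic neurons, at 20 mg/kg on 2 occasions per week over 5 weeks, and were given a running wheel for 2 months after their first injection. MPTP mice had the same injections without the wheel, and vehicle mice had saline on the same schedule. The injections are thus shared by both MPTP groups, and the design has no group that ran without MPTP. Strain, age and sex were not given in the labels. That each library is 1 mouse is implied and not stated, and p-values then measure the spread between libraries only, which may be technical.

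Interferons are cytokines released when a cell senses foreign or misplaced nucleic acid. Type I interferon binds its receptor and activates the JAK kinases, which phosphorylate transcription factors of the STAT family. A complex that holds STAT2 and IRF9 enters the nucleus and binds the interferon-stimulated response element (ISRE) of target promoters, while type II interferon acts mainly through the gamma-activated site (GAS). The induced proteins sense viral RNA, degrade or mask it, block entry and budding, and raise the further output of the pathway. In brain the response is known in microglia, astrocytes, endothelium, neurons and the choroid plexus.

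The ISRE core, GAAANNGAAA on either strand, was searched in the RefSeq promoters of the members (GRCm38.p6, 250 bases before to 50 bases after each start). Of the 40 members, 28 had a promoter entry, with 33 promoters in all, and 15 of the 33 promoters (45.5%) held the core, from 14 members. Over all 32851 promoters 1131 held it (3.44%). The GAS core TTCNNNGAA, the same pattern on both strands, was in 7 of the 33 member promoters (21.2%) and in 2726 of all promoters (8.30%). A match is a run of letters and not a shown binding site. The 6 promoters below belong to members whose values are given in full further on, and carry the core singly, in pairs or as an overlapping run. They lie at chr8:71537423-71537722 (minus strand), chr5:120907476-120907775 (minus strand), chr4:156200769-156201068 (minus strand), chr2:62646206-62646505 (minus strand), chr19:34607707-34608006 (plus strand) and chr19:34583279-34583578 (plus strand). Each is printed 5′ to 3′ on the strand of its gene, and capitals mark the ISRE core on either strand.
Bst2: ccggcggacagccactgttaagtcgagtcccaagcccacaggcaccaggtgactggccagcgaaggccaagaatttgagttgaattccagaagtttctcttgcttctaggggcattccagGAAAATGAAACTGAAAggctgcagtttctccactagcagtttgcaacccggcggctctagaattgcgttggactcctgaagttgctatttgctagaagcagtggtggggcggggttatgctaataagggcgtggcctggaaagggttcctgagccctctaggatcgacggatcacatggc
Oas1a: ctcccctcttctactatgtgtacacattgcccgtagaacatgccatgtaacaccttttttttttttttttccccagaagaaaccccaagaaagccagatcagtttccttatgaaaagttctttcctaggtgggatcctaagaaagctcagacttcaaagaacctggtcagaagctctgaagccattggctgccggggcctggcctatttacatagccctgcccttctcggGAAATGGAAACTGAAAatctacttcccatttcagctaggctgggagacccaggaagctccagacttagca
Isg15: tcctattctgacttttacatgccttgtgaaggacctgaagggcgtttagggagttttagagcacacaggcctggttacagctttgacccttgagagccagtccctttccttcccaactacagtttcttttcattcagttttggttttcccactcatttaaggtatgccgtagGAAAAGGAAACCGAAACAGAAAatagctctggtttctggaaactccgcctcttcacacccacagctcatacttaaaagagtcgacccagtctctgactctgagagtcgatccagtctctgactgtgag
Ifih1: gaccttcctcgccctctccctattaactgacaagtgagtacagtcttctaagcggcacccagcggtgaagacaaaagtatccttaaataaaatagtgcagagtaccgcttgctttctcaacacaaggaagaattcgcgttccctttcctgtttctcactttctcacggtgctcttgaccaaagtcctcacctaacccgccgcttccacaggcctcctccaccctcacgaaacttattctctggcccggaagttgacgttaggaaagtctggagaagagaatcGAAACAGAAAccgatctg
Ifit3b: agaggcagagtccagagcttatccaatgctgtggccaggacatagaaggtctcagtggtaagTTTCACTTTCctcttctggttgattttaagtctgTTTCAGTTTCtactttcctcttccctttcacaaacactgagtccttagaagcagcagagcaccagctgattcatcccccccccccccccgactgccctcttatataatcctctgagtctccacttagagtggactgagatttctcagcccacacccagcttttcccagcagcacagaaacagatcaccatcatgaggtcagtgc
Ifit3: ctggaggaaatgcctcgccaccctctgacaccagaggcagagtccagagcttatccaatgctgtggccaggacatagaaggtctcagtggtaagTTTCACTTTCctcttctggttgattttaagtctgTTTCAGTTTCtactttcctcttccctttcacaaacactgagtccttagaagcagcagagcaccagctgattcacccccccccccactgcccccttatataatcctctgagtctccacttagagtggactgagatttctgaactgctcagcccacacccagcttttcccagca

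In the Isg15 promoter 3 cores overlap, with first bases 78, 72 and 66 bases before the start. Bst2 and Oas1a each hold 2 overlapping cores, which begin 130 and 124 bases before the start in Bst2 and 20 and 14 bases before it in Oas1a. The paralogs Ifit3 and Ifit3b share the same stretch with 2 separate cores on the opposite strand, 34 bases apart in both. In Ifih1 the single core begins 32 bases after the start. The 13 tested members with an ISRE core in the window had log2 fold changes of MPTP over vehicle between 0.31 (Ddx58) and 2.14 (Bst2), with a median of 0.74. The 12 tested members whose promoters lacked those letters ranged between 0.06 (Cmpk2) and 1.78 (Lgals3bp), with a median of 0.36. The ranges overlap widely, and the difference of the medians was not tested.

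**Figure D1:**
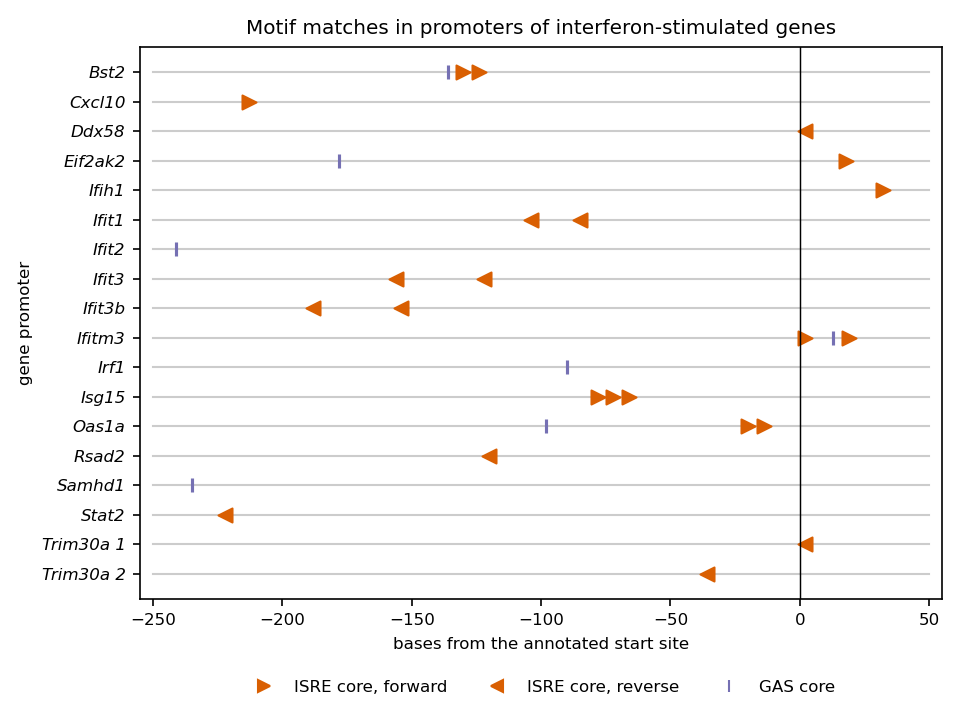
Positions of ISRE cores and GAS cores in the promoters of members with a match, as bases from the transcription start; each row is a promoter and each mark the first base of a match. The 3 overlapping cores of Isg15 lie between 78 and 66 bases before the start, whereas the cores of Ddx58, Eif2ak2 and Ifih1 lie just after it.

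All 40 members had a higher mean FPKM in MPTP than in vehicle libraries. The log2 fold change was positive for 32 of the 32 tested members and for 48.1% of all tested genes. The size of the difference turned on which MPTP library was read. The mean of log2(FPKM + 1) over the 40 members was 1.40, 1.42 and 1.44 in MPTP plus running libraries, 1.42, 1.86 and 2.18 in MPTP libraries and 1.19, 1.23 and 1.16 in vehicle libraries. The 3 vehicle libraries and the 3 running libraries were each close together, and the running libraries lay above the vehicle libraries. Within the MPTP group, replicate 1 was level with the running libraries, and replicates 2 and 3 were above all others. Of the 40 members, 35 had their highest value in MPTP replicate 3, 4 in MPTP replicate 2 and 1, Cmpk2, in MPTP plus running replicate 2. MPTP replicate 1 was the lowest MPTP library for 38 members, yet it was above every vehicle library for 24 and within the vehicle range for the other 16. Against the running libraries it was above all 3 for 11 members, below all 3 for 11 and within their range for 18. In whole tissue, fewer cells of a type and less RNA per cell cannot be told apart.

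**Figure D2:**
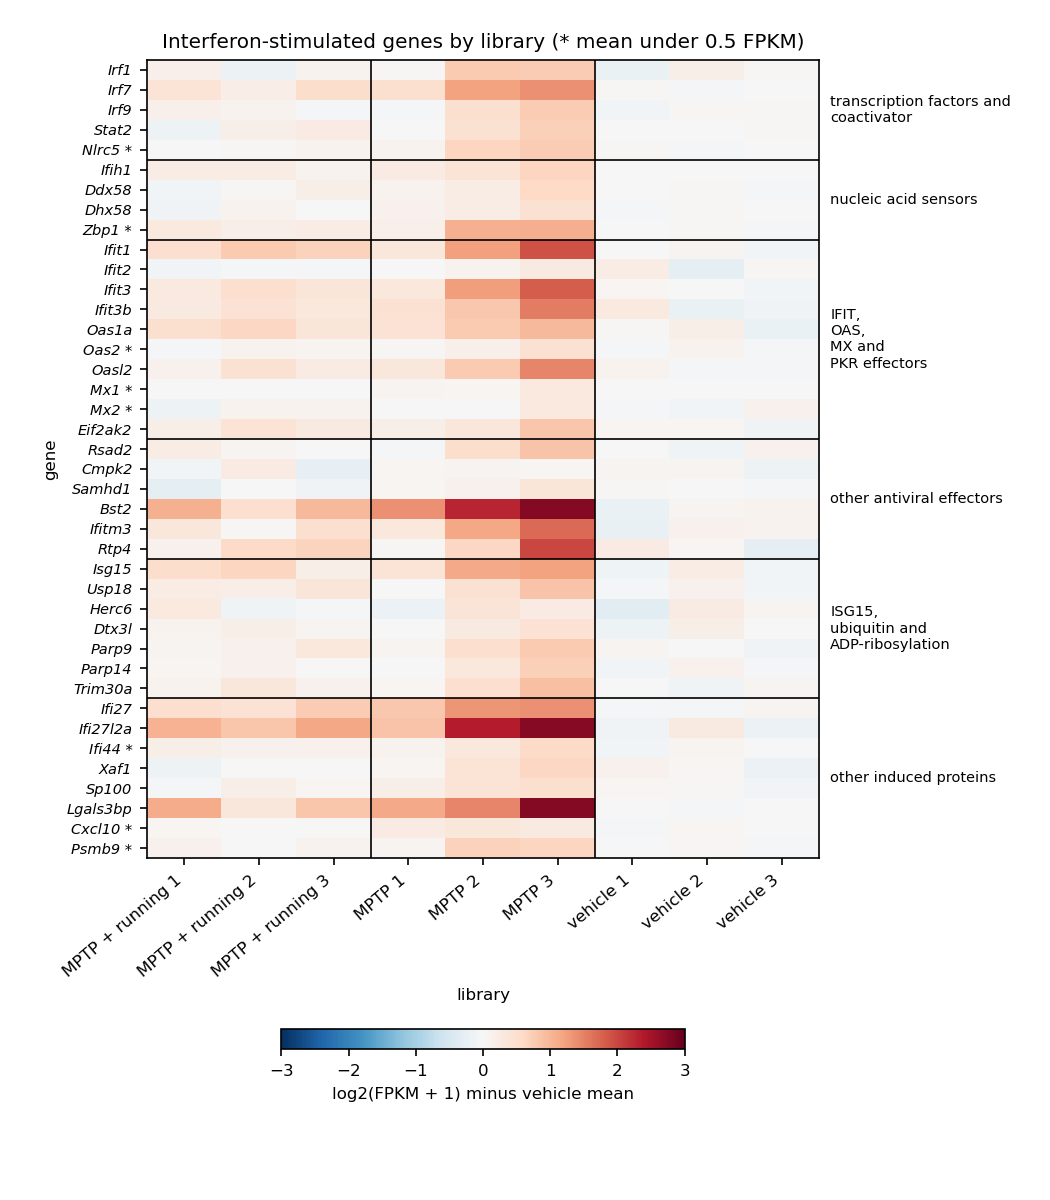
Difference of log2(FPKM + 1) from the mean of the 3 vehicle libraries for each of the 40 genes (rows, by role) in each library (columns). Deep red cells gather in MPTP replicates 2 and 3, while MPTP replicate 1 and the 3 MPTP plus running libraries are paler.

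No member passed the test over all genes between MPTP and vehicle (limma, Benjamini-Hochberg adjusted p from 0.153 to 0.993), in a comparison where 0.0125% of the tested genes passed. At an unadjusted p under 0.05, 21 of the 32 tested members were higher and 0 lower (65.6%, against 2.61% of all tested genes higher at that level). The values of the 2 groups did not overlap for 18 of the 32, all higher in MPTP (5.20% of all tested genes), and for 24 of all 40. By role, this held for 2 of 5 transcription factors and coactivators and 4 of 4 sensors. It held for 7 of 10 IFIT, OAS, MX and PKR effectors and 3 of 6 other antiviral effectors. Of genes of ISG15, ubiquitin and ADP-ribosylation it held for 1 of 7, and of other induced proteins for 7 of 8. The median log2 fold change of the tested members was 0.45, beside -0.01 for all tested genes. Cmpk2 turned to lower with equal FPKM sums and Herc6 with array weights, and 39 of the 40 means were higher without MPTP replicate 3 or without vehicle replicate 3. When MPTP replicate 1 was left out, 6 members passed, namely Bst2, Ifi27, Ifi27l2a, Ifit1, Ifit3 and Irf7, against 0.200% of all genes. Without that library the values did not overlap for 30 of the 32, higher in MPTP (10.4% of all tested genes), and for 37 of all 40. MPTP replicate 1 was the lowest MPTP library for 38 of the 40 members, so leaving it out favoured these counts. The shares of all genes are then not a like comparison. A fold change here is a difference of log2(FPKM + 1), which understates the change of low genes.

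Among the 4 tested transcription factors, Irf7 had the highest log2 fold change over vehicle. Irf7, the factor that amplifies interferon production and is itself induced by interferon, had 0.897, 0.652 and 1.09 FPKM in MPTP plus running libraries, 1.02, 2.32 and 2.70 FPKM in MPTP libraries and 0.471, 0.406 and 0.439 FPKM in vehicle libraries. Its MPTP libraries and its running libraries were all above its vehicle libraries (log2 fold change 1.02 with an SE of 0.21; adjusted p = 0.525 by limma and Benjamini-Hochberg for MPTP against vehicle). Irf1, a factor activated by both interferon types, had 1.46, 0.959 and 1.40 FPKM in MPTP plus running libraries, 1.28, 2.85 and 2.78 FPKM in MPTP libraries and 0.918, 1.51 and 1.26 FPKM in vehicle libraries. MPTP replicate 1 lay among the running and vehicle values, and the other MPTP libraries were about level with each other (0.54, SE 0.21, on the log2 scale). Stat2, the partner of IRF9 in the complex that binds the ISRE, had 2.34, 3.17 and 3.42 FPKM in MPTP plus running libraries, 2.75, 4.08 and 5.03 FPKM in MPTP libraries and 2.66, 2.67 and 2.79 FPKM in vehicle libraries, and all groups overlapped. Irf9, the DNA-binding part of that complex, averaged 2.99 ± 1.06 FPKM in MPTP and 1.95 ± 0.137 FPKM in vehicle libraries (SD, n = 3 each). Nlrc5, the coactivator of class I histocompatibility genes, was under the level for testing, with 0.217, 0.764 and 0.930 FPKM in MPTP libraries and 0.174, 0.116 and 0.124 FPKM in vehicle libraries. Adjusted p for the 4 tested factors lay between 0.525 and 0.991 (limma, Benjamini-Hochberg).

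The sensors of foreign nucleic acid were expressed at about 1 FPKM or less in vehicle. All 4 were without overlap between MPTP and vehicle libraries, higher in MPTP (5.20% of all tested genes). Ifih1, which encodes the sensor of long double-stranded RNA MDA5, had 0.895, 0.911 and 0.758 FPKM in MPTP plus running libraries, 0.937, 1.18 and 1.53 FPKM in MPTP libraries and 0.611, 0.630 and 0.653 FPKM in vehicle libraries. Its running libraries lay below all MPTP and above all vehicle libraries, although the highest running value, 0.911 FPKM, was close to the lowest MPTP value, 0.937 FPKM. For MPTP against vehicle the log2 fold change was 0.43 with an SE of 0.11 (adjusted p = 0.783 by limma and Benjamini-Hochberg). Ddx58, which encodes RIG-I, the sensor of short RNA with a 5′ triphosphate, had 0.891, 1.05 and 1.27 FPKM in MPTP plus running libraries, 1.13, 1.32 and 2.004 FPKM in MPTP libraries and 1.02, 1.03 and 0.926 FPKM in vehicle libraries. MPTP replicate 3 was highest, and MPTP replicate 1 lay among the running values, above vehicle. Dhx58, which encodes LGP2, a regulator of both sensors, had 0.421, 0.645 and 0.548 FPKM in MPTP plus running libraries, 0.686, 0.785 and 1.11 FPKM in MPTP libraries and 0.489, 0.572 and 0.536 FPKM in vehicle libraries, with the running libraries on both sides of the vehicle range. Zbp1, a sensor of Z-form nucleic acid that can start cell death, was under the level for testing and had 0.289, 0.183 and 0.224 FPKM in MPTP plus running libraries, 0.170, 1.22 and 1.25 FPKM in MPTP libraries and 0.0671, 0.0871 and 0.0113 FPKM in vehicle libraries. Its high values were those of MPTP replicates 2 and 3, and MPTP replicate 1 was below the 3 running libraries. On the log2 scale the 3 tested sensors were higher in MPTP by 0.27 to 0.43, and none passed over all genes (limma, Benjamini-Hochberg adjusted p from 0.783 to 0.991).

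The effectors that bind, cut or block viral RNA included 10 members. Of these, 7 did not overlap between MPTP and vehicle and were higher in MPTP (5.20% of all tested genes). Ifit3, a protein that steadies the binding of IFIT1 to RNA caps, had 9.26, 10.8 and 9.70 FPKM in MPTP plus running libraries, 9.31, 19.02 and 28.5 FPKM in MPTP libraries and 7.73, 7.40 and 6.90 FPKM in vehicle libraries. MPTP replicate 1 lay within the running values, above vehicle (log2 fold change 1.13 with an SE of 0.31; adjusted p = 0.84 by limma and Benjamini-Hochberg for MPTP against vehicle). Ifit1, the cap-binding member, had 2.22, 2.95 and 2.67 FPKM in MPTP plus running libraries, 1.89, 4.35 and 7.61 FPKM in MPTP libraries and 1.32, 1.41 and 1.15 FPKM in vehicle libraries, and each running library was above MPTP replicate 1. Ifit3b, a close copy of Ifit3, had 4.79, 5.46 and 4.93 FPKM in MPTP plus running libraries, 5.57, 7.37 and 12.9 FPKM in MPTP libraries and 4.88, 3.18 and 3.40 FPKM in vehicle libraries, so that all running libraries were below all MPTP libraries. In GENCODE M21, 31.7% of the 100-base runs of Ifit3 transcripts occur also in Ifit3b, and how the authors divided such reads is not given in the sources used here. Oas1a, a 2′-5′ oligoadenylate synthetase whose product switches on RNase L, had 0.918, 1.12 and 0.780 FPKM in MPTP plus running libraries, 0.876, 1.39 and 1.73 FPKM in MPTP libraries and 0.403, 0.557 and 0.202 FPKM in vehicle libraries. Both MPTP groups were above every vehicle library (log2 fold change 0.74 with an SE of 0.16; adjusted p = 0.588 by limma and Benjamini-Hochberg for MPTP against vehicle), and 40.9% of its 100-base runs are shared with Oas1g. Oasl2, a family member with ubiquitin-like domains, averaged 2.22 ± 1.31 FPKM in MPTP and 0.682 ± 0.106 FPKM in vehicle libraries (SD, n = 3 each). Eif2ak2, the kinase PKR that halts translation, averaged 2.93 ± 0.976 FPKM in MPTP and 1.81 ± 0.167 FPKM in vehicle libraries. Oas2, a larger relative of Oas1a, and Mx1 and Mx2 were under the level for testing. Mx1, a GTPase against influenza-like viruses, reached 0.333 FPKM in MPTP against 0.0928 FPKM in vehicle, and Mx2, annotated as a polymorphic pseudogene, overlapped between the groups.

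Ifit2 had a lower log2 fold change of MPTP over vehicle than its neighbours. Ifit2, Ifit3, Ifit3b and Ifit1 lie in that order on the plus strand of chromosome 19 (GRCm38, 34550694 to 34650009), and Ifit2 ends 7111 bases before Ifit3. Ifit2, which like Ifit1 binds viral RNA, had 3.51, 3.59 and 3.54 FPKM in MPTP plus running libraries, 3.80, 4.13 and 4.74 FPKM in MPTP libraries and 4.56, 2.97 and 3.85 FPKM in vehicle libraries. Its MPTP values were above all running values but overlapped the vehicle values, and its log2 fold change of 0.13 had a 95% interval of -0.15 to 0.42, against 0.42 to 1.84 for Ifit3. On chromosome 12, Rsad2 and Cmpk2 lie 12751 bases apart on opposite strands. Rsad2, which encodes viperin, had 0.656, 0.522 and 0.440 FPKM in MPTP plus running libraries, 0.394, 1.05 and 1.58 FPKM in MPTP libraries and 0.425, 0.316 and 0.558 FPKM in vehicle libraries, with MPTP replicates 2 and 3 above all other libraries. Cmpk2, a mitochondrial nucleotide kinase that supplies the substrate of viperin, had 5.71, 7.39 and 5.01 FPKM in MPTP plus running libraries, 6.36, 6.50 and 6.43 FPKM in MPTP libraries and 6.52, 6.50 and 5.41 FPKM in vehicle libraries. Its 3 MPTP libraries lay inside the spread of vehicle and running libraries, with a log2 fold change of 0.06 (95% interval -0.23 to 0.35) for MPTP against vehicle, beside -0.01 to 0.90 for Rsad2. Both intervals include 0, and with the choroid plexus markers described further on as a covariate the log2 fold changes were 0.40 for Cmpk2 and 0.35 for Rsad2. Ifit2 and Cmpk2 were singled out after their values were seen, and the difference between neighbours was not tested.

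Among the effectors at the membrane, Bst2 had the highest log2 fold change of the tested members with all libraries, and without MPTP replicate 1 Ifi27l2a (2.54) was above Bst2 (2.52). Bst2 (ENSMUSG00000046718, chromosome 8, 71534255 to 71537456, minus strand, GRCm38), the tetherin that holds budding virions at the cell surface, had 5.73, 3.52 and 5.27 FPKM in MPTP plus running libraries, 7.28, 14.6 and 20.7 FPKM in MPTP libraries and 1.79, 2.43 and 2.47 FPKM in vehicle libraries. MPTP was highest, running next and vehicle lowest, with no overlap between any of the groups. Its means were 14.2 ± 6.73 FPKM in MPTP and 2.23 ± 0.381 FPKM in vehicle libraries (SD, n = 3 each). That is a log2 fold change of 2.14 with an SE of 0.32, at an adjusted p of 0.223 by limma and Benjamini-Hochberg. Ifitm3, which blocks fusion of virus in endosomes, had the highest mean of the members over all 9 libraries, although Ifi27 was higher in the running group (16.2 against 15.2 FPKM) and in MPTP replicate 1. Ifitm3 had 15.7, 12.5 and 17.3 FPKM in MPTP plus running libraries, 15.4, 28.5 and 41.5 FPKM in MPTP libraries and 10.2, 13.4 and 13.2 FPKM in vehicle libraries. MPTP replicate 1 lay within the running values, and the other MPTP libraries were above all 7 others (log2 fold change 1.06 with an SE of 0.30; adjusted p = 0.868 by limma and Benjamini-Hochberg for MPTP against vehicle). Rtp4, a chaperone of receptors that also binds viral RNA, averaged 2.69 ± 2.68 FPKM in MPTP and 0.711 ± 0.311 FPKM in vehicle libraries, with a value of 5.75 FPKM in MPTP replicate 3, and overlapped between all groups. Samhd1, which hydrolyses deoxynucleotides, averaged 2.64 ± 0.410 FPKM in MPTP and 2.19 ± 0.0781 FPKM in vehicle libraries, a small difference (0.19, SE 0.11, log2 scale).

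**Figure D3:**
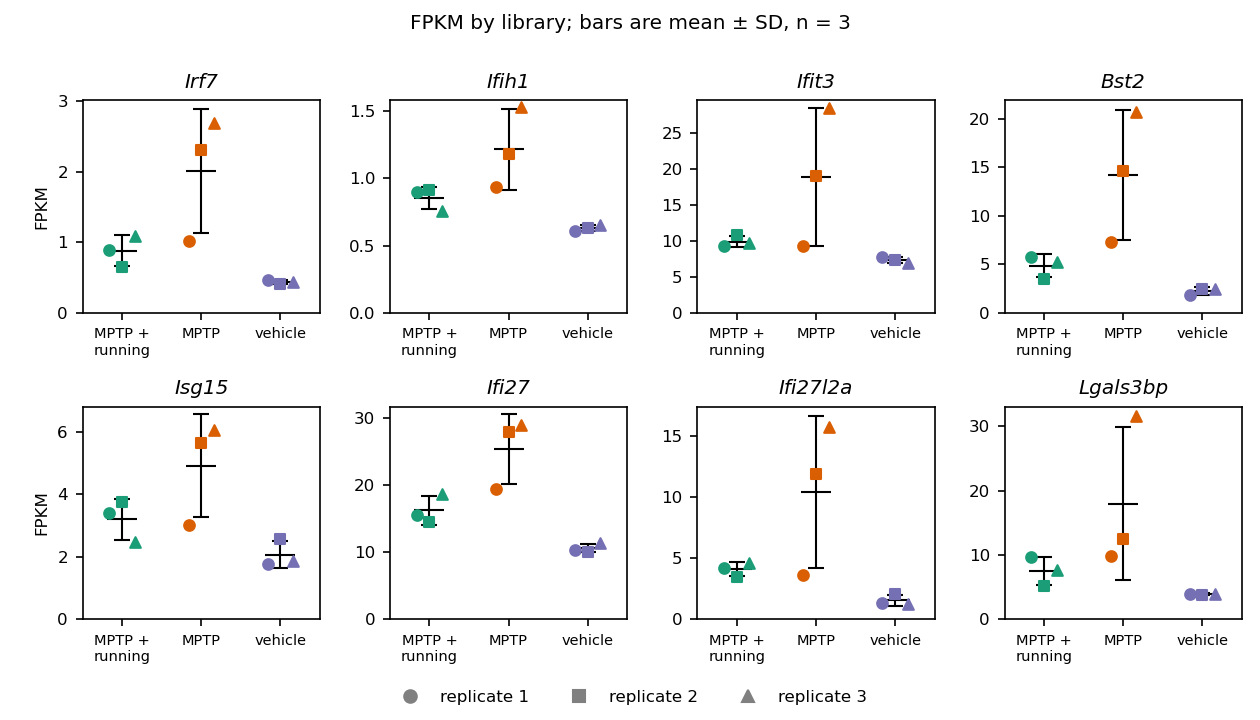
FPKM of 8 genes in each library (points, shaped by replicate) with the mean ± SD of each group (n = 3) as bars; MPTP plus running, MPTP and vehicle run from left to right. The MPTP points are spread widest in each panel, and in Ifih1, Bst2, Ifi27 and Lgals3bp no 2 groups overlap.

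ISG15 is a ubiquitin-like modifier that tags proteins, and it was grouped here with genes of ubiquitin and ADP-ribosylation. Of these 7 members Isg15 alone did not overlap between MPTP and vehicle libraries, higher in MPTP (5.20% of all tested genes). Isg15 (ENSMUSG00000035692, chromosome 4, 156199424 to 156200818, minus strand), the modifier itself, had 3.40, 3.73 and 2.45 FPKM in MPTP plus running libraries, 3.02, 5.65 and 6.05 FPKM in MPTP libraries and 1.76, 2.55 and 1.85 FPKM in vehicle libraries. All MPTP libraries were above all vehicle libraries, with MPTP replicate 1 inside the running values (log2 fold change 0.92 with an SE of 0.22; adjusted p = 0.76 by limma and Benjamini-Hochberg for MPTP against vehicle). Usp18, the protease that removes ISG15 and damps the receptor, averaged 1.10 ± 0.607 FPKM in MPTP and 0.505 ± 0.113 FPKM in vehicle libraries, and the groups overlapped. Herc6, the ISG15 ligase of the mouse, had 1.75, 1.04 and 1.15 FPKM in MPTP plus running libraries, 0.984, 1.92 and 1.66 FPKM in MPTP libraries and 0.778, 1.66 and 1.38 FPKM in vehicle libraries, with no order between the groups (0.15, 95% interval -0.30 to 0.61). Parp9, a partner of the ubiquitin ligase Dtx3l, had 0.922, 0.985 and 1.25 FPKM in MPTP plus running libraries, 0.915, 1.59 and 2.12 FPKM in MPTP libraries and 0.931, 0.835 and 0.702 FPKM in vehicle libraries, and MPTP replicate 1 was below the highest vehicle library. Trim30a, a regulator of inflammatory signalling, had 0.902, 1.23 and 0.945 FPKM in MPTP plus running libraries, 0.836, 1.52 and 2.33 FPKM in MPTP libraries and 0.786, 0.653 and 0.872 FPKM in vehicle libraries, with the running libraries all above the vehicle libraries. Dtx3l averaged 1.38 ± 0.349 FPKM in MPTP and 1.01 ± 0.229 FPKM in vehicle libraries. Parp14, an ADP-ribosyltransferase, averaged 1.07 ± 0.518 FPKM in MPTP and 0.593 ± 0.123 FPKM in vehicle libraries, and both genes overlapped between these groups. Adjusted p of these 7 members lay between 0.760 and 0.991 (limma, Benjamini-Hochberg).

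The group of other induced proteins held the smallest adjusted p. Ifi27 (ENSMUSG00000064215, chromosome 12, 103434211 to 103440239, plus strand, GRCm38), an interferon-induced protein of the mitochondrial and nuclear membrane, had 15.5, 14.5 and 18.7 FPKM in MPTP plus running libraries, 19.3, 27.9 and 28.9 FPKM in MPTP libraries and 10.4, 10.1 and 11.3 FPKM in vehicle libraries. No groups overlapped, and MPTP replicate 1 was nearer to the running libraries than to the other MPTP libraries. The means were 25.4 ± 5.25 FPKM in MPTP and 10.6 ± 0.633 FPKM in vehicle libraries (SD, n = 3 each). That is a log2 fold change of 1.17 with an SE of 0.16, at an adjusted p of 0.153 by limma and Benjamini-Hochberg. Ifi27l2a, a relative of Ifi27 that lies 1927 bases from it on the opposite strand, had 4.15, 3.48 and 4.61 FPKM in MPTP plus running libraries, 3.56, 11.8 and 15.7 FPKM in MPTP libraries and 1.35, 2.05 and 1.21 FPKM in vehicle libraries, with both MPTP groups above all vehicle libraries (log2 fold change 1.98 with an SE of 0.41; adjusted p = 0.542 by limma and Benjamini-Hochberg for MPTP against vehicle). Lgals3bp, a secreted glycoprotein that binds galectin-3, had 9.60, 5.20 and 7.67 FPKM in MPTP plus running libraries, 9.80, 12.4 and 31.7 FPKM in MPTP libraries and 3.95, 3.75 and 3.94 FPKM in vehicle libraries. Its value in MPTP replicate 3 was far above the other 8, and the groups still did not overlap (log2 fold change 1.78 with an SE of 0.37; adjusted p = 0.542 by limma and Benjamini-Hochberg for MPTP against vehicle). Xaf1, which counters inhibitors of apoptosis, averaged 2.29 ± 0.616 FPKM in MPTP and 1.54 ± 0.280 FPKM in vehicle libraries, and the groups overlapped. Sp100, a nuclear body protein, averaged 1.05 ± 0.221 FPKM in MPTP and 0.597 ± 0.0820 FPKM in vehicle libraries, without overlap. The other 3 were under the level for testing, with no overlap between MPTP and vehicle libraries. Cxcl10, a chemokine that draws T cells, had 0.118, 0.0591 and 0.0819 FPKM in MPTP plus running libraries, 0.266, 0.358 and 0.297 FPKM in MPTP libraries and 0.0377, 0.115 and 0.0533 FPKM in vehicle libraries. Psmb9, a subunit of the immunoproteasome, was at 0.357 to 1.06 FPKM in MPTP and 0.239 to 0.317 FPKM in vehicle libraries, and Ifi44, a cytoplasmic protein of little known function, at 0.234 to 0.729 FPKM in MPTP and 0.0965 to 0.229 FPKM in vehicle libraries. Psmb9, at a mean of 0.488 FPKM over all libraries, was the nearest below the level for testing and Dhx58, at 0.643 FPKM, the nearest above it.

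**Figure D4:**
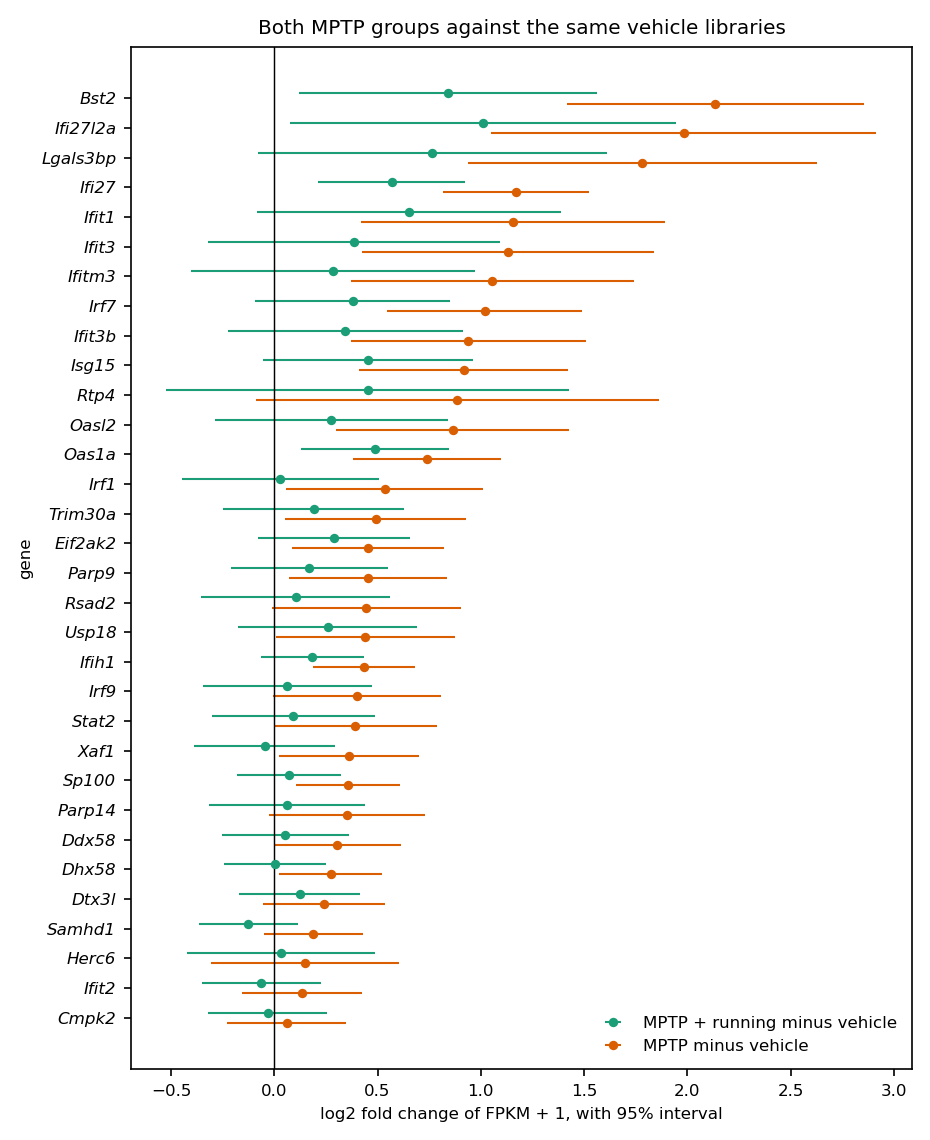
Log2 fold change over vehicle of MPTP plus running (upper mark) and of MPTP (lower mark) for the 32 tested genes, with 95% intervals from limma on log2(FPKM + 1). Every MPTP estimate is above 0, Bst2 at 2.14 is the highest, and the estimate for MPTP plus running is the lower of the pair for every gene.

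In running mice every one of the 40 members had a lower mean than in MPTP mice. None passed the test over all genes (limma, Benjamini-Hochberg adjusted p = 0.9999 for all 32 tested members), in a comparison where 0% of the tested genes passed, or 0 of 15997. At an unadjusted p under 0.05, 15 of 32 were lower in running mice (2.89% of all tested genes were lower at that level). That count rests on a spread estimated together with the vehicle libraries. Under the alternatives that did not leave out a single library it was 5 to 15, mostly without a share of all tested genes beside it. No overlap was seen for 9 of the 32 (5.36% of all tested genes lower) and for 11 of all 40. Negative values were found for 32 of 32, beside 54.3% of all tested genes, and the median log2 fold change was -0.32, beside -0.01 for all tested genes. With array weights Herc6 turned to higher, and no tested member did so under the other scalings or filters. For Bst2 the log2 fold change was -1.29 (SE 0.32), for Ifi27 -0.60 (SE 0.16), for Samhd1 -0.31 (SE 0.11) and for Irf7 -0.64 (SE 0.21). The smallest differences were those of Cmpk2 (-0.09, 95% interval -0.38 to 0.19), Dtx3l (-0.12) and Herc6 (-0.12).

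The size of this difference depended on single MPTP libraries. When MPTP replicate 1 was left out, 28 of the 32 tested members did not overlap and were lower in running mice (9.47% of all tested genes), as were 35 of all 40, and Bst2 and Ifi27l2a passed (limma, Benjamini-Hochberg), against 0.156% of all tested genes. That library was the lowest MPTP library for 38 of the 40 members, so leaving it out favoured these counts, and the shares of all genes are not a like comparison. When MPTP replicate 3 was left out, 3 members were at an unadjusted p under 0.05, and the share of all tested genes at that level was not taken. The median log2 fold change was then -0.15, and 4 of the 40 means were higher in running mice. This comparison and that of MPTP with vehicle share the MPTP libraries, so a high MPTP library moves both, in opposite directions.

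Against vehicle, running mice had higher means for 36 of the 40 members. Among tested members 28 of 32 were higher (44.7% of all tested genes), or 25 of 32 with equal FPKM sums, where Irf1, Dhx58 and Herc6 also turned. The 4 lower members were Ifit2, Cmpk2, Samhd1 and Xaf1, at -0.06, -0.03, -0.13 and -0.05 on the log2 scale. None passed over all genes (limma, Benjamini-Hochberg adjusted p from 0.753 to 0.998; 0% of all tested genes passed, or 0 of 15997). At an unadjusted p under 0.05, 4 were higher, namely Bst2, Ifi27, Ifi27l2a and Oas1a (3.12% of all tested genes higher). No overlap was seen for 13 of 32 (6.38% of all tested genes higher) and for 15 of all 40. The median log2 fold change was 0.19, beside -0.02 for all tested genes. The largest were Ifi27l2a (1.01, SE 0.41), Bst2 (0.84, SE 0.32), Lgals3bp (0.76, SE 0.37), Ifit1 (0.65, SE 0.32) and Ifi27 (0.57, SE 0.16). Irf1, Dhx58 and Ddx58 were near 0 (0.03, 0.0034 and 0.05), and the sign turned for each under at least 1 other setting.

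The interferons themselves were at or near 0. Of 14 interferon genes, which include Ifnb1, Ifng and several of the Ifna family, none reached the level for testing. Listed at 0 in every library were 9 of them, and the other 5 (Ifna12, Ifna13, Ifnk, Ifne and Ifng) reached at most 0.119 FPKM in any library. Of 16 receptor and JAK-STAT genes 14 were tested, and 12 of them were higher in MPTP than in vehicle (48.1% of all tested genes). At an unadjusted p under 0.05, 2 were higher (2.61% of all tested genes), and the median log2 fold change was 0.05. The receptor chains Il10rb and Ifnar2 had log2 fold changes of 0.21 and 0.21 for MPTP against vehicle, and neither passed over all genes. Of 16 genes that lead to interferon production 13 were tested, and 9 of them were higher in MPTP than in vehicle. Their median was 0.07, with 2 higher at an unadjusted p under 0.05, beside the same shares of all tested genes. Those with the smallest p in this comparison were Irf5 (0.30), Trim25, the ligase that activates RIG-I (0.27), and Irf8, a factor of microglia (0.22), and none passed over all genes.

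Markers of other cell types differed between the same libraries. All 9 markers of choroid plexus epithelium, a structure within the ventricles that secretes cerebrospinal fluid, had higher means in MPTP than in vehicle libraries. Of these, 8 were at an unadjusted p under 0.05 by limma (2.61% of all tested genes higher), with a median log2 fold change of 1.91. In running against MPTP all 9 were lower, 4 of them at that level (2.89% of all tested genes lower), with a median of -1.17. None passed over all genes in either comparison. Their summed level was 21.5 to 953 FPKM in MPTP plus running, 959 to 2079 FPKM in MPTP and 38.1 to 345 FPKM in vehicle libraries. MPTP replicate 3 was the highest library in both measures, while other libraries did not take the same order. The mean log2(FPKM + 1) of the 9 markers was 3.69, 2.95 and 3.99 in MPTP libraries, so that MPTP replicate 1, the lowest of the 3 in interferon-stimulated genes, was the second in these markers. MPTP plus running replicate 2 was lowest of all libraries in these markers at 0.85, while its mean over the 40 members, 1.42, was between those of the other running libraries. With the marker mean as a covariate, 32 of 32 tested members were higher in MPTP than in vehicle (median 0.50), with 13 at an unadjusted p under 0.05 (6.66% of all tested genes higher) and 0 passing over all genes (limma, Benjamini-Hochberg). For running against MPTP that fit gave 0 of 32 higher, a median of -0.38 and 6 members lower at an unadjusted p under 0.05 (4.77% of all tested genes lower). Single members moved with the covariate: for MPTP against vehicle Lgals3bp was at 1.15 on the log2 scale, against 1.78 without it, Herc6 at 0.01 and Cmpk2 at 0.40. For running against MPTP Lgals3bp was at -0.59. In vehicle libraries the marker mean was 1.21, 1.26 and 2.34, below every MPTP library. For MPTP against vehicle the covariate thus largely follows the group, and the covariate fit cannot separate them. The part of choroid plexus tissue in the differences was not tested.

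**Figure D5:**
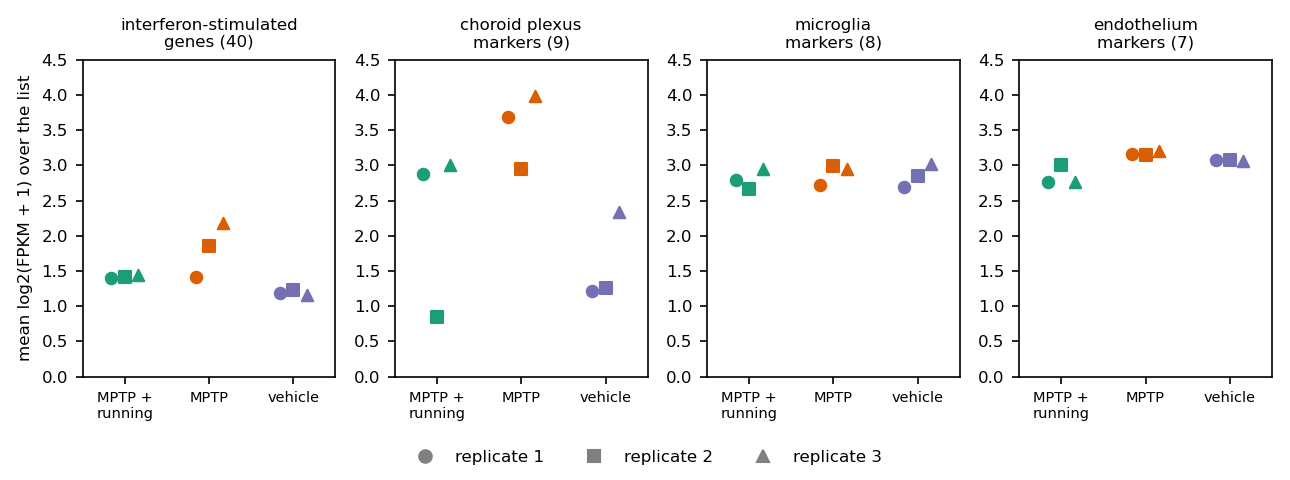
Mean log2(FPKM + 1) over a gene list (vertical axis) in each library, with 1 panel each for the 40 interferon-stimulated genes and for markers of choroid plexus (9), microglia (8) and endothelium (7); points are shaped by replicate and grouped as MPTP plus running, MPTP and vehicle. MPTP replicate 1 is the lowest MPTP library in the first panel (1.42), level with the running libraries and above the vehicle libraries. In the second panel (3.69) it is second to MPTP replicate 3, and the microglia panel shows no order between groups.

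Microglia, the resident macrophages of the brain, differed little: their 8 markers summed to 76.3 to 92.1 FPKM in MPTP plus running, 81.5 to 100.1 FPKM in MPTP and 76.0 to 93.4 FPKM in vehicle libraries, with 6 of 8 means higher in MPTP than in vehicle. The 8 markers of T and B lymphocytes summed to at most 0.520 FPKM in any library. Of 7 endothelial markers all had lower means in running than in MPTP mice, 6 of them at an unadjusted p under 0.05 (2.89% of all tested genes lower), with sums of 47.4 to 61.0 FPKM in running and 65.0 to 69.0 FPKM in MPTP libraries. The 6 monocyte and neutrophil markers summed to 0.810 to 2.26 FPKM in running, 4.57 to 6.99 FPKM in MPTP and 3.82 to 6.38 FPKM in vehicle libraries, which rested mainly on S100a8 and S100a9. Their mean log2(FPKM + 1) was 0.62, 0.78 and 0.80 in MPTP libraries, in the same order as the 40 members. Gja1, a gap junction gene of astrocytes, had 23.6, 24.8 and 24.4 FPKM in running, 25.8, 13.8 and 8.08 FPKM in MPTP and 26.9, 23.2 and 25.3 FPKM in vehicle libraries, so that MPTP replicates 2 and 3 were below all others; it was chosen after its values were seen. The mean log2(FPKM + 1) of all 6 astrocyte markers was 5.18 to 5.26 in running, 4.92 to 5.19 in MPTP and 5.16 to 5.30 in vehicle libraries. All 5 red blood cell markers had lower means in MPTP than in vehicle libraries (median log2 fold change -1.32) and in running than in vehicle libraries (median -2.24). They summed to 10.8 to 45.5 FPKM in running, 31.4 to 54.1 FPKM in MPTP and 50.9 to 437 FPKM in vehicle libraries, with 437 FPKM in vehicle replicate 3. The part of endothelial, myeloid, astrocytic and red blood cells in the differences above was not tested. The 8 markers of dopaminergic neurons, which define the tissue, summed to 48.8 to 73.4 FPKM in running, 43.9 to 88.1 FPKM in MPTP and 48.7 to 72.6 FPKM in vehicle libraries. The mean log2(FPKM + 1) of these 8 markers was lowest of all libraries in MPTP replicate 2 (1.52) and highest in MPTP replicate 3 (3.04). Single markers differed in spread. The dopamine transporter Slc6a3 was listed at 0.149, 0 and 10.6 FPKM in running libraries. It was at 2.75, 0.0377 and 14.4 FPKM in MPTP libraries and 1.41 to 10.8 FPKM in vehicle libraries. Pitx3 was at most 0.187 FPKM. Aldh1a1, the largest part of the sum in every library, was steadier. It was at 27.6 to 46.8 FPKM in running, 30.4 to 42.1 FPKM in MPTP and 22.1 to 43.0 FPKM in vehicle libraries. The FPKM of a library summed to 318416 to 347524, and 13413 to 13965 genes reached 1 FPKM. Read counts are not among the values used here, so depth and counting error are unknown.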

How the data were processed

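The authors deposited FPKM values per gene for 9 libraries, and these were used as they stand. Per the labels' protocols, mRNA was enriched with magnetic beads, and the fragmented RNA was read on a NovaSeq6000 instrument. The submitters' processing notes name bcl2fastq, HTSeq, DESeq2 and the build GRCm38. The aligner, FPKM tool and strandedness were not given in the sources used here. Of the members, 15 share exon bases with another gene, where reads cannot be told apart without strand.

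GENCODE M21 (GRCm38) gave symbols, coordinates and biotypes, and promoters came from RefSeq (GRCm38.p6). Tests used limma 3.58.1 in R 4.3.3 and its mean-variance trend, on log2(FPKM + 1) of the 15997 genes that averaged 0.5 FPKM or more. The 3 contrasts were taken from a joint fit of the 9 libraries, which left 6 residual degrees of freedom beside 2.68 from the prior. This fit takes a single spread per gene for all groups, while many members spread more in MPTP libraries than in the others. For Irf7 the SD was 0.878 FPKM in MPTP, 0.219 FPKM in running and 0.0329 FPKM in vehicle libraries. For such members p-values of contrasts with MPTP may be too small, and those of running against vehicle too large. P-values were two-sided and adjusted by Benjamini-Hochberg over all tested genes, with a threshold of 0.05. The fit was tested on simulated data. Tables and figures used Python 3.11.15, pandas 2.3.3, numpy 2.4.6 and matplotlib 3.10.9.

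The members and gene lists were chosen with earlier results of these data known. In each role the 3 tested members with the smallest p for MPTP against vehicle, and likewise 3 genes of each pathway list, are named with values; others that are named were chosen after their values were seen. One pathway gene that this rule picks is not reported here. Replicate numbers have no stated meaning. Same-numbered MPTP and vehicle libraries deviated together from their group means (correlations 0.25, 0.33 and 0.11), although MPTP replicate 3 did not correlate best with its own number. A replicate block was therefore read beside that comparison. With the block no member changed its call at the adjusted threshold (0 members passing, smallest adjusted p 0.142 by limma). Of the running libraries only replicate 3 correlated best with its own number (-0.34, -0.13 and 0.25 with MPTP, -0.26, 0.007 and 0.24 with vehicle). Alternatives changed the filter, pseudocount, scaling, variance model, weights, libraries and block, and, chosen after seeing the data, a block within 6 libraries and a choroid plexus covariate.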

Additional observations from a re-analysis of the deposited data

How the results depend on the processing

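Every median log2 fold change kept its sign under all 23 alternatives. Shares of all tested genes at an unadjusted p under 0.05 were taken only for the main fit and the choroid plexus covariate. In the main fit they were 2.61%, 2.89% and 3.12% for MPTP against vehicle, running against MPTP and running against vehicle. With the covariate they were 6.66% and 4.77% for the first and second of these. Counts at that level under other settings have no such share beside them. With 3 libraries a group and unknown depth, small differences of low genes could not be resolved. For MPTP against vehicle the median was 0.83 with a pseudocount of 0.1, and 13 members were at an unadjusted p under 0.05 with the choroid plexus covariate (chosen after seeing the data). Leaving out 1 library gave 0 to 6 members passing (limma, Benjamini-Hochberg), 6 without MPTP replicate 1 and 0 without any other, 15 to 28 at an unadjusted p under 0.05, and medians of 0.29 (without MPTP replicate 3) to 0.67. For running against MPTP the count at an unadjusted p under 0.05 was 5 with array weights, 6 with only the 6 libraries compared, 9 with the replicate block in those 6 libraries and 6 with the choroid plexus covariate. Leaving out 1 library gave 0 to 2 members passing and 3 to 26 at an unadjusted p under 0.05. The count was 26 without MPTP replicate 1, 5 without MPTP replicate 2, 3 without MPTP replicate 3, 5, 8 and 7 without running replicates 1, 2 and 3, and 9 without vehicle replicate 3. The median then lay between -0.54 and -0.15. For running against vehicle the median was 0.28 with a mean of at least 1 FPKM, 0.13 with no filter, 0.34 and 0.26 with pseudocounts of 0.1 and 0.5, 0.15 with equal FPKM sums and 0.24 with quantile normalization. The count at an unadjusted p under 0.05 was 12 with only the 6 libraries compared, 10 with the replicate block in them and 2 with the covariate. Leaving out 1 library gave counts of 2 to 9 and medians of 0.17 to 0.23, with 9 without MPTP replicate 1, 7 without MPTP replicate 3 and 2 without running replicate 1 or vehicle replicate 1 or 3. In that comparison Irf1 turned to -0.018 with equal FPKM sums, -0.012 with equal sums outside the mitochondrial genome, -0.024 with the covariate and lay between -0.076 and 0.13 without single libraries. Dhx58 turned to -0.026 and -0.021 under those scalings and -0.025 with array weights, and lay between -0.046 and 0.059 without single libraries. Ddx58 lay between -0.015 and 0.12 without single libraries. The causes were not tested. The replicate block over all 9 libraries changed no call at an adjusted p under 0.05; at an unadjusted p under 0.05 it gave 22, 13 and 4 members for MPTP against vehicle, running against MPTP and running against vehicle.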
